A study of Homo sapiens with 6 samples.

Results

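The 10 genes described here encode the enzymes of the hexosamine pathway and of O-GlcNAc cycling. They were chosen by name (GFPT1, GFPT2, GNPNAT1, PGM3, UAP1, OGT, OGA, NAGK, GNPDA1 and GNPDA2), not by a measured value, and matched to Ensembl gene IDs. They are 10 of the 60107 genes in the count table and 10 of the 22613 genes with enough counts to be tested. The study sequenced mRNA of H9 cells, an established line of human embryonic stem cells, collected on day 9 of a 10-day protocol that steers the cells toward nephron progenitors, from which the filtering units of the kidney form. The 3 libraries with glutamine came from cells in complete medium and the 3 libraries without glutamine from cells deprived of it from day 0 on, in both cases with no genetic change named in the labels. The labels do not say whether the 3 libraries of a group came from separate cultures, so p-values measure only the spread between these libraries, which may be technical.

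The hexosamine pathway draws fructose 6-phosphate from glycolysis and takes an amino group from glutamine to make glucosamine 6-phosphate. That sugar is acetylated, rearranged and joined to uridine to give UDP-GlcNAc, the donor of N-acetylglucosamine for N-glycans, hyaluronan and other glycans. UDP-GlcNAc is also the donor from which O-GlcNAc transferase attaches a single sugar to serines and threonines of nuclear and cytosolic proteins, a mark that O-GlcNAcase takes off again. Because its entry reaction uses glutamine itself, the pathway is known as a point where amino acid and sugar supply meet.

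The libraries held 78220507 to 84746566 counts, and each member had at least 1992 counts in every library. Replicate 1 with glutamine stood apart from its group. Across genes, which are not independent replicates, Pearson's r of log2 CPM (counts scaled to the size of the library) ranged from 0.9758 to 0.9762 against replicates 2 and 3, and from 0.9908 to 0.9927 against the glutamine-free libraries. Of the nephron progenitor markers 10 of 11 had at least 50 counts in every library, and their summed level in replicates 1 to 3 was 1623, 882 and 810 CPM with glutamine and 2019, 1707 and 1509 CPM without. The list was split: without replicate 1 with glutamine 7 of its 11 genes were called higher and 4 lower in the glutamine-free libraries. In that fit PAX8, WT1, PAX2 and LHX1 were among those higher, and they made up most of the difference in the sum, while SIX2, EYA1, OSR1 and CITED1 were lower. SIX2 was at 6.57, 34.8 and 27.8 CPM with glutamine and 9.69, 7.79 and 7.27 CPM without. HOXD11 was at or near 0 with glutamine (0 to 0.542 CPM) and at 3.22, 5.33 and 6.05 CPM without. The 6 paraxial mesoderm markers, among them PAX3 and PAX7, summed to 65.9, 211 and 218 CPM with glutamine and to 88.5, 76.3 and 68.7 CPM without. The 5 neural markers summed to at most 4.97 CPM in any library. Of the 5 pluripotency markers NANOG had at most 1 count and POU5F1 at most 0.151 CPM in every library, while the list's sum of 346 to 443 CPM came almost wholly from LIN28A and DPPA4. These lay opposite ways with no overlap: LIN28A was at 156, 310 and 322 CPM with glutamine and 152, 132 and 125 CPM without, and DPPA4 at 184, 126 and 113 CPM with it and 255, 269 and 212 CPM without. In these bulk samples fewer cells of a type and less RNA per cell cannot be told apart. Replicates 2 and 3 with glutamine thus differed from the other 4 libraries in these markers as well as in several genes below, and the part of the markers in those results was not tested. The tests of the 10 members, the OGT to OGA ratio and the counts of genes called are given with and without replicate 1 with glutamine.

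Promoters are shown for GFPT1, GFPT2 and OGA, the 3 members with the largest absolute log2 fold changes, and for OGT, the member with the highest level. Each sequence is the RefSeq window on GRCh38.p14 from 250 bases before to 50 bases after the gene's start, printed 5′ to 3′ on the gene's strand. Capitals mark the GC box GGGCGG, the letters bound by Sp-family factors, on either strand. The windows are GFPT1 at chr2:69387178-69387477 on the minus strand, GFPT2 at chr5:180353287-180353586 on the minus strand, OGT at chrX:71532854-71533153 on the plus strand and OGA at chr10:101818395-101818694 on the minus strand.
GFPT1: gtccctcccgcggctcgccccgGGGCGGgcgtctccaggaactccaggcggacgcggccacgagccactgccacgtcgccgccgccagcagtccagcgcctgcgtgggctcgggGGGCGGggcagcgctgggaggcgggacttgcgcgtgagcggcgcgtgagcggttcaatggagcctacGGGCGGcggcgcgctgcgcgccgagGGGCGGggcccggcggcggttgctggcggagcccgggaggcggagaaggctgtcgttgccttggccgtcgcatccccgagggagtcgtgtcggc
GFPT2: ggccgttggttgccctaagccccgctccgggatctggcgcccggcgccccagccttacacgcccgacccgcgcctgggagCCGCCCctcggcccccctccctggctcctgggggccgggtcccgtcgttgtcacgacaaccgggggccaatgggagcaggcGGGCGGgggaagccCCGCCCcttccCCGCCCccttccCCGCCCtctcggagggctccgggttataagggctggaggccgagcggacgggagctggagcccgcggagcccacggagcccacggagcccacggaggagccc
OGT: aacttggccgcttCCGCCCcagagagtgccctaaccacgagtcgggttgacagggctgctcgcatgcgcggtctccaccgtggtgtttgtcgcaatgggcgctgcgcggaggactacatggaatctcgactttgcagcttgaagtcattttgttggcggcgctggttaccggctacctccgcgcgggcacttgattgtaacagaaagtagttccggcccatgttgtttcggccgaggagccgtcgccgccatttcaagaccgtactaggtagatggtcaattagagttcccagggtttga
OGA: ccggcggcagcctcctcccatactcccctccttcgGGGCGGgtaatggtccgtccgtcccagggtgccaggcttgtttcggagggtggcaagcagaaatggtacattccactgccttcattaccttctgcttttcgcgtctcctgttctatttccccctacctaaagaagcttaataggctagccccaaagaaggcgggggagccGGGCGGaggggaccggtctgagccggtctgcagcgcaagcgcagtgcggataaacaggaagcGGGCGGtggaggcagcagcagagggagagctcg

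GC boxes numbered 4 in the GFPT1 window, 5 in GFPT2, 3 in OGA and 1 in OGT. Of the 14 windows of the 10 genes 12 held the motif. The most, 7, were in the window of GNPNAT1, whose log2 fold change was 0.09. Each window of UAP1, at a log2 fold change of 0.11, held 3 or 4. A relation between GC boxes and the changes was not tested. The motif was added to the search late, with the data at hand, and is common, being present in 45% of the 35116 promoter windows in the table. Base composition differed alongside, at 78% G and C for GFPT1, 77% for GFPT2, 61.7% for OGA, 57.7% for OGT and 79.3% for GNPNAT1. Elements bound by stress factors were searched on both strands as well. The amino acid response core TGATGNAA was found in 0 of the 14 windows of the 10 genes (3.62% of all windows hold it), and the endoplasmic reticulum stress element in 0 of 14 (0.0769% of all windows). The unfolded protein response core TGACGTG was found in 2 of 14 windows, against 1.97% of all windows. Both are overlapping windows of UAP1 and hold the same match. It is shown here in capitals in the window at chr1:162561281-162561580, plus strand, where it begins at base 18 from the start site:
UAP1: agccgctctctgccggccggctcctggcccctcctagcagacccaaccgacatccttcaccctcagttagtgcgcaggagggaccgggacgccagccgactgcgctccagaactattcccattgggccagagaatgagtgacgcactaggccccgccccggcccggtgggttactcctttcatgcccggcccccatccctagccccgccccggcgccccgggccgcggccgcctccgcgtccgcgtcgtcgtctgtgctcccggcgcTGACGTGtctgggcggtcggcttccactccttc
These matches describe letters in the reference sequence, and no binding was measured.

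Levels of different genes were compared per length, as TPM, the counts divided by the merged exon length and scaled to the same total in each library. OGT, the transferase, was highest of the 10, at 252 ± 17.6 TPM with glutamine and 213 ± 21.3 TPM without (SD, n = 3). GNPDA1 (165 ± 8.01 TPM with glutamine) and OGA (160 ± 21.1) followed, with overlapping ranges. GFPT1 came next at 102 ± 14.6 TPM, then UAP1 at 69.5 ± 2.43. PGM3, GNPNAT1 and GFPT2 lay together at 45.7 ± 1.15, 42.9 ± 2.83 and 40.6 ± 8.36 TPM, with overlapping ranges. GNPDA2 at 20.5 ± 1.36 and NAGK at 15.9 ± 4.40 TPM were the lowest per length and also overlapped. The merged length takes in the exons of all annotated transcripts, 8894 bases for NAGK and 4780 for GFPT2. The order therefore depends on the annotation: in CPM without glutamine NAGK (36.9) was above GFPT2 (26.8). Without glutamine the order was nearly the same: GNPNAT1 (45.5 ± 1.79 TPM) stood before PGM3 (42.7 ± 2.33) with overlapping ranges, and GFPT2, at 24.6 ± 2.79, now lay below both of them in every library. The ranges of GFPT1 and UAP1, separate in both groups, were closest without glutamine, at 77.6 to 79.7 TPM against 71.3 to 76.1.

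**Figure D1:**
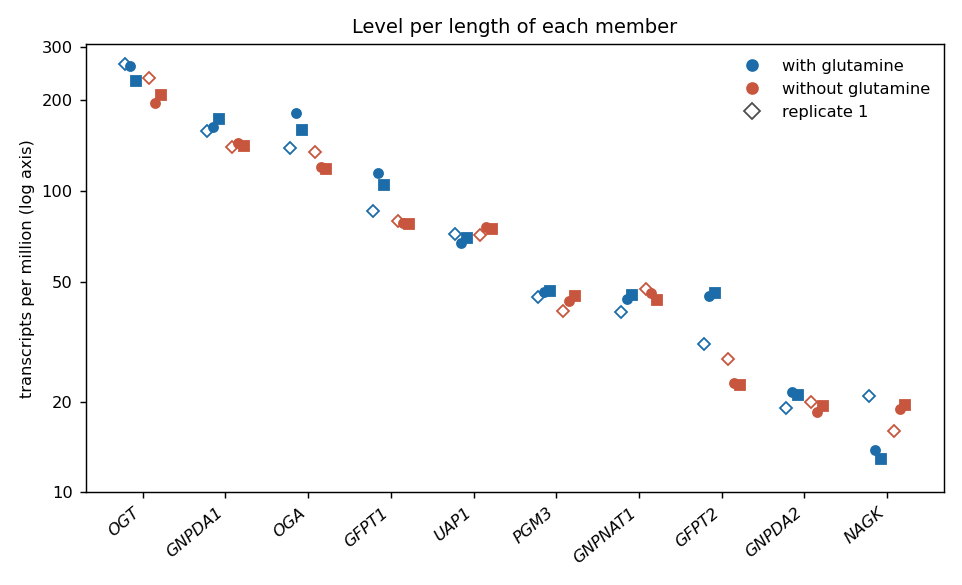
Level per length (TPM, log axis) of each member in each library, ordered by the mean with glutamine; blue points are libraries with glutamine, red points libraries without, and open diamonds replicate 1 of each group. OGT is highest at 195 to 264 TPM, and the 3 middle enzymes UAP1, PGM3 and GNPNAT1 keep nearly equal levels in both groups.

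The entry step is catalysed by glutamine:fructose 6-phosphate amidotransferase, which sets the pace of the pathway and exists as a pair of isoenzymes, GFPT1 and GFPT2. GFPT1 (ENSG00000198380) lies on the minus strand of chromosome 2 at 69319769 to 69387254 (GRCh38, GENCODE 29). Its level in replicates 1 to 3 was 167, 230 and 219 CPM with glutamine and 158, 160 and 160 CPM without. All 3 libraries without glutamine were below all 3 with it, but replicate 1 with glutamine was only just above them. The group means were 205 ± 33.5 and 159 ± 1.31 CPM (SD, n = 3). With a log2 fold change of -0.37 (SE 0.12) the gene was not called (edgeR adjusted p 0.108). Without replicate 1 with glutamine the log2 fold change was -0.49 (SE 0.06) at an edgeR adjusted p of 0.000226.

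GFPT2 (ENSG00000131459), on the minus strand of chromosome 5 at 180300690 to 180353387, showed the largest difference of the 10 genes. It was at 32.4, 48.4 and 51.6 CPM with glutamine and at 29.6, 25.4 and 25.4 CPM without. The groups did not overlap, and replicate 1 with glutamine again lay beside the other group. The means were 44.1 ± 10.3 and 26.8 ± 2.44 CPM (SD, n = 3), and the log2 fold change was -0.72 (SE 0.18), or 0.608 times the level with glutamine. The edgeR adjusted p was 0.0747, above the threshold of 0.05, while DESeq2 on the same counts gave an adjusted p of 0.00422. Without replicate 1 with glutamine the log2 fold change was -0.90 (SE 0.09) at an edgeR adjusted p of 4.3e-05.

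The ratio of the isoenzymes was compared within each library, where scaling between libraries cancels. GFPT2 had 0.194, 0.211 and 0.236 counts per count of GFPT1 with glutamine and 0.188, 0.159 and 0.159 without. Every library without glutamine lay below every library with it, although replicates 1 of the groups were close. The log2 ratio differed by -0.34 between groups (exact two-sided permutation test, p = 0.1, the smallest p that 3 against 3 can give). Per length, GFPT2 made up 28.3 ± 2.00% of the summed GFPT transcripts with glutamine and 23.8 ± 1.78% without (SD, n = 3). The sum of both isoenzymes was 117, 160 and 151 TPM with glutamine and 108, 101 and 100 TPM without.

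**Figure D2:**
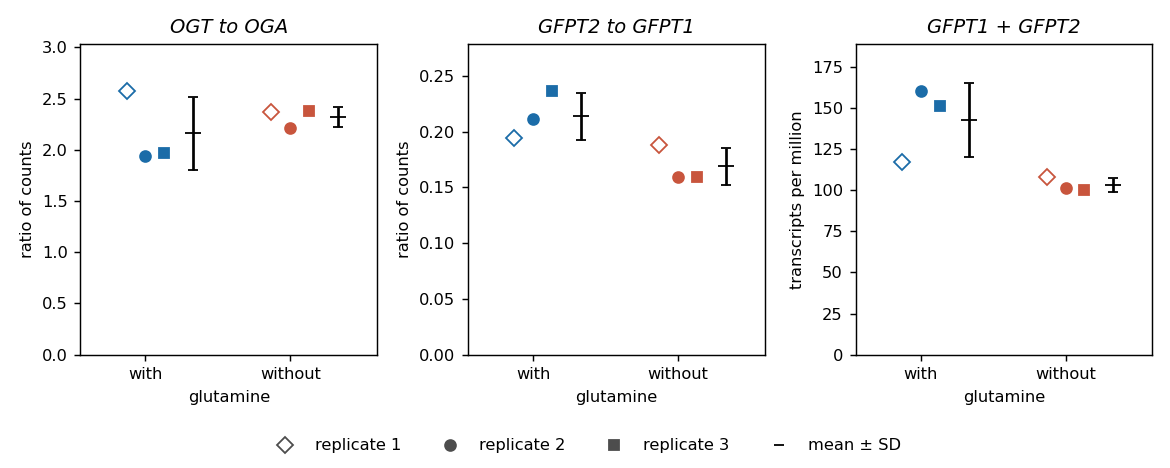
Ratios of counts of OGT to OGA and of GFPT2 to GFPT1, and the summed level of GFPT1 and GFPT2 per length, in each library (open diamonds replicate 1, circles replicate 2, squares replicate 3; bars mean ± SD). The GFPT2 to GFPT1 ratio is 0.194 to 0.236 with glutamine and 0.159 to 0.188 without, while the OGT to OGA ratio overlaps between groups through replicate 1 with glutamine at 2.57.

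For the 3 enzymes between glucosamine 6-phosphate and UDP-GlcNAc the groups overlapped, and no difference beyond the spread between libraries was detected. GNPNAT1 (ENSG00000100522, chromosome 14 at 52775194 to 52791668, minus strand) acetylates glucosamine 6-phosphate. It was at 34.9, 39.5 and 42.7 CPM with glutamine and at 42.1, 42.2 and 40.6 CPM without, with overlapping groups and a log2 fold change of 0.09 (SE 0.09). PGM3 (ENSG00000013375, chromosome 6 at 83161150 to 83193936, minus strand) moves the phosphate group from carbon to carbon. Its levels of 71.2, 76.4 and 80.1 CPM with glutamine and 65.6, 72.9 and 76.3 CPM without also overlapped, at a log2 fold change of -0.08 (SE 0.08). UAP1 (ENSG00000117143, chromosome 1 at 162561506 to 162599842, plus strand) joins the sugar to uridine and so makes UDP-GlcNAc. At 54.0, 52.0 and 56.1 CPM with glutamine and 54.6, 60.2 and 59.8 CPM without, its log2 fold change was 0.11 (SE 0.07). The edgeR adjusted p was 0.503 for GNPNAT1, 0.524 for PGM3 and 0.356 for UAP1, and without replicate 1 with glutamine it was 0.822, 0.238 and 0.282. Exons of genes on the opposite strand cover 35.6% of the exon bases of GNPNAT1 and 14.8% of those of PGM3. The libraries were stranded, but the strand setting of the counting is not given in the sources used here, so these counts are less certain than the others.

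Return and salvage enzymes did not all lie the same way. GNPDA1 and GNPDA2 are glucosamine 6-phosphate deaminases, which take the amino group off again and send the sugar back to glycolysis. GNPDA1 (ENSG00000113552, chromosome 5 at 141991749 to 142013041, minus strand) was at 137, 146 and 161 CPM with glutamine and at 124, 131 and 130 CPM without. Its groups did not overlap, and the log2 fold change was -0.20 (SE 0.08, with an adjusted p of 0.146 from edgeR). GNPDA2 (ENSG00000163281, chromosome 4 at 44682200 to 44726595, minus strand) was at 29.7, 34.9 and 35.2 CPM with glutamine and at 31.8, 30.5 and 32.2 CPM without. Here the groups overlapped, because replicate 1 with glutamine was the lowest library of all, at a log2 fold change of -0.08 (SE 0.09, with an adjusted p of 0.576 from edgeR). Left without that library, it had a log2 fold change of -0.15 (SE 0.07) and an edgeR adjusted p of 0.118. Opposite-strand genes cover 8.94% of its exon bases.

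NAGK (ENSG00000124357, chromosome 2 at 71064344 to 71079805, plus strand) phosphorylates N-acetylglucosamine freed from broken-down glycans and so refills the pathway without glutamine. It was at 40.7, 27.6 and 27.0 CPM with glutamine and at 31.8, 38.7 and 40.3 CPM without. Replicate 1 with glutamine was the highest of the 6 libraries, whereas replicates 2 and 3 with glutamine were the lowest. With all libraries the log2 fold change was 0.22 (SE 0.18, with an adjusted p of 0.436 from edgeR). Without replicate 1 with glutamine it was 0.44 (SE 0.10) at an edgeR adjusted p of 0.00796, and NAGK was then the 1 member called higher without glutamine. In that fit GNPDA1 was called lower, at -0.26 (SE 0.07, with an adjusted p of 0.0171 from edgeR).

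The enzymes of the O-GlcNAc mark had lower CPM in every library without glutamine than in any with it, although neither was called. OGT (ENSG00000147162), the transferase, lies on the plus strand of the X chromosome at 71533083 to 71575897. It was at 567, 577 and 534 CPM with glutamine and at 518, 440 and 474 CPM without. The groups did not overlap, and in this gene replicate 1 with glutamine stayed with its own group. The means were 559 ± 22.2 and 477 ± 38.8 CPM (SD, n = 3). The log2 fold change was -0.23 (SE 0.08, with an adjusted p of 0.122 from edgeR), and without replicate 1 with glutamine -0.21 (SE 0.08, with an adjusted p of 0.0591 from edgeR). Under per-length scaling the lowest library with glutamine (232 TPM) was below the highest without (237 TPM), so the separation depends on the scaling.

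OGA (ENSG00000198408, listed as MGEA5 in older annotation), the hydrolase that removes the mark, lies on the minus strand of chromosome 10 at 101784443 to 101818465. It was at 221, 297 and 271 CPM with glutamine and at 218, 199 and 199 CPM without. The groups were separate only by the small gap between replicates 1, which closed under DESeq2's size factors. The log2 fold change was -0.35 (SE 0.11, with an adjusted p of 0.105 from edgeR), and without replicate 1 with glutamine -0.46 (SE 0.07, with an adjusted p of 0.000877 from edgeR).

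The balance of the transferase and the hydrolase was read as the ratio of their counts within each library. OGT had 2.57, 1.94 and 1.97 counts per count of OGA with glutamine and 2.37, 2.21 and 2.38 without. The groups overlapped, since replicate 1 with glutamine had the highest ratio and the other 2 of its group the lowest. The log2 ratio differed by 0.11 between groups (exact two-sided permutation test, p = 0.400). That difference was 0.24 without replicate 1 with glutamine, 0.04 without replicate 2 and 0.05 without replicate 3 of that group, so its size rests on single libraries.

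**Figure D3:**
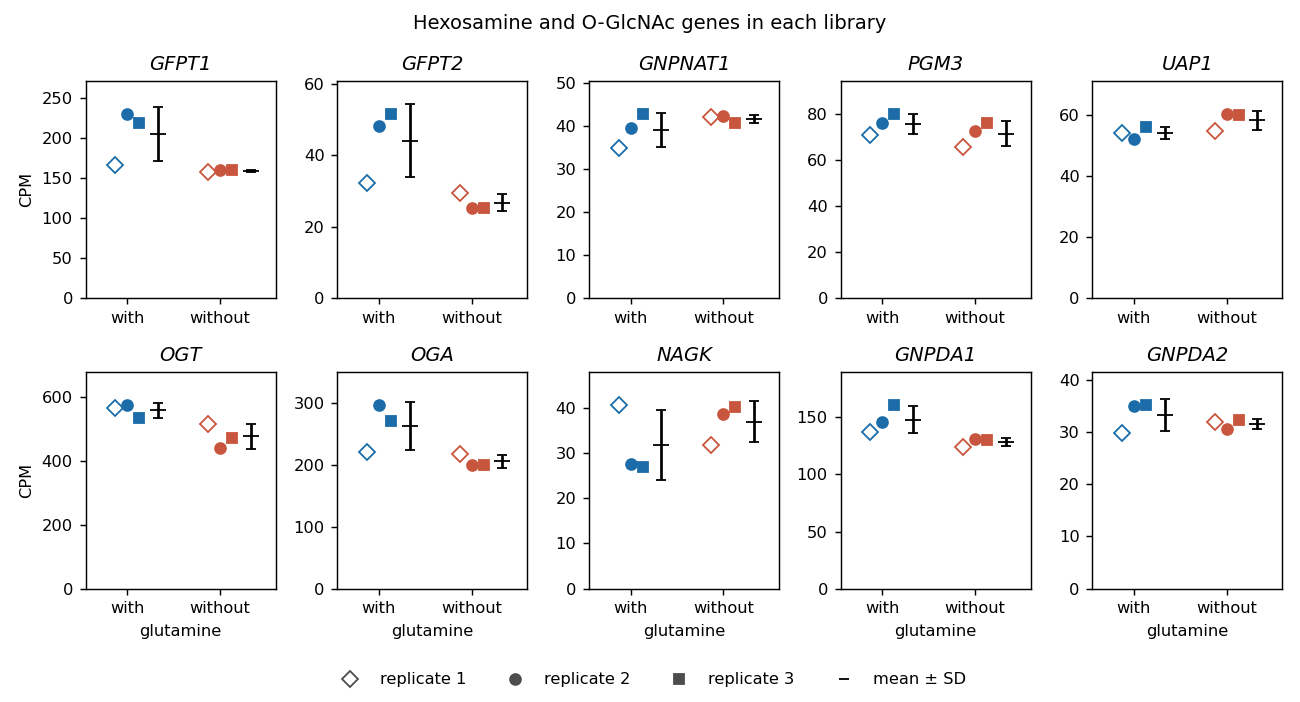
CPM of each member in each library, with the axis of each panel starting at 0 (open diamonds replicate 1, circles replicate 2, squares replicate 3; bars mean ± SD of 3 libraries). In GFPT1, GFPT2 and OGA replicate 1 with glutamine sits just above the libraries without glutamine, in OGT it sits with its own group, and in NAGK it is the highest library.

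Of the 10 members, 0 were called by edgeR's quasi-likelihood test at a Benjamini-Hochberg adjusted p under 0.05, where 0.00442% of all genes tested were called. At an unadjusted p under 0.05 there were 5 members, against 29.7% of all genes, and at an adjusted p under 0.1 there was 1, GFPT2, against 14.5%. DESeq2 called 1 member, again GFPT2, against 14.0% of the genes to which it gave an adjusted p. The groups did not overlap for 5 members, against 34.2% of all genes. All 5 (GFPT1, GFPT2, OGT, OGA and GNPDA1) were lower without glutamine, a direction that held for 16.9% of all genes and for 15.7% of those with a mean of at least 1000 counts. The median log2 fold change of the 10 members was -0.14, beside 0.001 over all genes tested.

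Without replicate 1 with glutamine, 5 of the 10 members were called, against 41.3% of all genes tested in that fit, so the members' share was near the background. GFPT1, GFPT2, OGA and GNPDA1 were lower, where 19.0% of all genes were called lower, and NAGK was higher. In 7 of the 10 members replicate 1 with glutamine lay nearer the mean of the libraries without glutamine than the mean of the other 2 libraries of its group, against 62.1% of all genes. The exceptions were GNPNAT1, UAP1 and OGT.

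**Figure D4:**
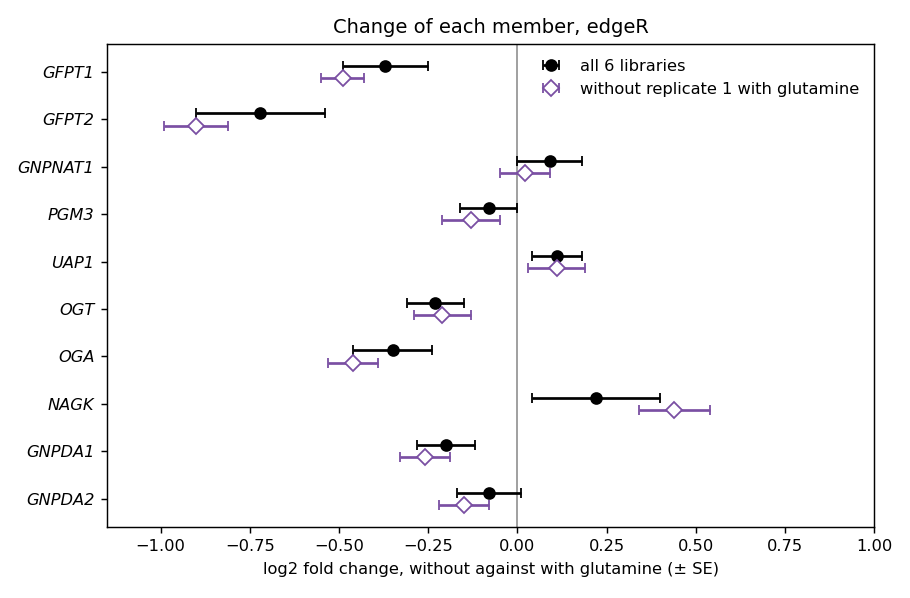
Log2 fold change (without against with glutamine, ± SE, edgeR) of each member with all 6 libraries (filled circles) and without replicate 1 with glutamine (open diamonds); values left of 0 are lower without glutamine. GFPT2 is farthest from 0 in both fits, at -0.72 and -0.90, and NAGK is the member farthest to the right, at 0.22 and 0.44.

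Genes around the pathway were read from 6 lists of 70 genes in all, of which 0 genes were called by edgeR with all libraries. Precursor supply held 7 genes, 4 higher and 1 lower without overlap (17.3% of all genes tested were higher and 16.9% lower without overlap), with a median log2 fold change of 0.14. SLC1A5, a glutamine importer, averaged 77.1 ± 6.63 CPM (SD, n = 3) with glutamine and 99.0 ± 4.05 CPM in its absence, and the log2 fold change was 0.36 (SE 0.08). GLUL, which makes glutamine from glutamate, was at 430 ± 40.4 and 370 ± 1.89 CPM, and the log2 fold change was -0.21 (SE 0.08). HK1, a hexokinase that traps glucose in the cell, had a log2 fold change of 0.17 and SLC38A2, another glutamine importer, 0.23. Neither had overlap between groups. The 2 genes with overlapping groups lay lower: HK2, another hexokinase, at -0.37, and GPI at -0.32. In the fit without replicate 1 with glutamine HK2 was at -0.64 and GPI at -0.48. Without replicate 1 with glutamine 2 of the 7 genes were called higher and 3 lower, beside 41.3% of all genes called in either direction.

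Salvage and turnover held 9 genes, 1 higher and 4 lower without overlap (17.3% and 16.9% of all genes), with a median of -0.13. ENGASE, which cuts N-glycans off proteins in the cytosol, was at 41.6, 45.3 and 42.0 CPM with glutamine and at 31.2, 30.7 and 28.7 CPM without. Here replicate 1 with glutamine lay with its own group, and the log2 fold change was -0.51 (SE 0.08, with an adjusted p of 0.0679 from edgeR). RENBP, which interconverts N-acetylglucosamine and N-acetylmannosamine, was low in abundance at 6.06 ± 0.442 and 3.78 ± 0.386 CPM (SD, n = 3), and the log2 fold change was -0.68. The lysosomal genes CTBS and NAGLU, which break down glycans, had log2 fold changes of -0.26 and 0.30. The fit that left out replicate 1 with glutamine called 1 of the 9 genes higher and 3 lower, beside 41.3% of all genes. In that fit NAGLU was at 0.47 (edgeR adjusted p 0.00165).

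The sialic acid branch, which turns UDP-GlcNAc into the sugars that cap many glycans, held 6 genes, with a median of 0.03. Of these 1 was higher and 2 were lower without overlap, against 17.3% and 16.9% of all genes. GNE, its entry enzyme, was at 38.6, 50.4 and 49.4 CPM with glutamine and at 32.7, 33.9 and 37.2 CPM without, and the log2 fold change was -0.41 (SE 0.12, with an adjusted p of 0.088 from edgeR). NANS, a later enzyme of the branch, was at 25.1 ± 0.845 and 30.1 ± 2.75 CPM (SD, n = 3). SLC35A1, which carries the finished sugar nucleotide into the Golgi, had a log2 fold change of -0.24. Of the 6 genes 2 were called higher and 2 lower once replicate 1 with glutamine was left out, beside 41.3% of all genes. GNE was then at -0.53.

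Users of UDP-GlcNAc held 25 genes, 6 higher and 4 lower without overlap (17.3% and 16.9% of all genes), with a median of 0.06. HAS2, a hyaluronan synthase, differed most among the higher ones. It was at 71.3, 30.2 and 28.6 CPM with glutamine and at 128, 142 and 140 CPM without, and the log2 fold change was 1.66 (SE 0.34, with an adjusted p of 0.0694 from edgeR), and 2.22 without replicate 1 with glutamine. HAS3, of the same family, was at 7.69, 2.32 and 1.92 CPM with glutamine and at 8.30, 8.59 and 7.75 CPM without. In both genes replicate 1 with glutamine was higher than the other 2 of its group, and in HAS3 it reached nearly the level without glutamine. GCNT1, which branches mucin-type O-glycans, lay the other way at 7.85, 18.1 and 16.5 CPM with glutamine and 6.65, 5.84 and 4.94 CPM without, and the log2 fold change was -1.28 (SE 0.31). SLC35D2, a Golgi carrier of nucleotide sugars, had a log2 fold change of -0.66. With replicate 1 with glutamine left out, 7 of the 25 genes were called higher and 7 lower, beside 41.3% of all genes. The log2 fold change of HAS3 was then 1.96, against 1.04 with all libraries, and that of GCNT1 -1.57.

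Partners of the O-GlcNAc enzymes held 8 genes, 1 higher and 2 lower without overlap (17.3% and 16.9% of all genes), with a median of -0.05. TET1, a DNA demethylase of the family that binds OGT, was at 114, 231 and 211 CPM with glutamine and at 99.1, 79.2 and 80.4 CPM without, and the log2 fold change was -1.10 (SE 0.25, with an adjusted p of 0.0718 from edgeR). Its relative TET2 was at 74.4 ± 3.15 and 63.7 ± 5.59 CPM (SD, n = 3), and the log2 fold change was -0.22. HCFC1, a chromatin cofactor that OGT both modifies and cleaves, was at 188 ± 12.7 and 227 ± 34.7 CPM, and the log2 fold change was 0.27. Left without replicate 1 with glutamine, the fit called 1 of the 8 genes higher and 3 lower, beside 41.3% of all genes. TET1 was then at -1.35.

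The stress response list holds genes of the unfolded protein response and of ATF4, whose factors are known to act on GFPT1 and other genes of the pathway. Of its 15 genes 14 were tested, with a median of 0.22. Of these 6 were higher and 0 lower without overlap, against 17.3% and 16.9% of all genes. ASNS, which uses glutamine to make asparagine, had a log2 fold change of 0.89 (SE 0.17, with an adjusted p of 0.0682 from edgeR). The ATF4 target CHAC1 was at 1.78 (SE 0.24, with an adjusted p of 0.0679 from edgeR). SDF2L1 and HERPUD1, endoplasmic reticulum stress genes, had log2 fold changes of 0.79 and 0.41. Of the 14 genes 5 were called higher and 1 lower when replicate 1 with glutamine was left out, beside 41.3% of all genes. CHAC1 was then at 2.01 and the gene called lower, ATF6, at -0.32. The list did not lie one way, and the groups overlapped for 8 of its genes. With all libraries ATF6 was at -0.22, TRIB3 at -0.15, SEL1L at 0.01 and DDIT3 at 0.02. EDEM1 was at 0.04, ATF3 at 0.06, HSP90B1 at 0.20 and HSPA5 at 0.23. XBP1, the factor best known for acting on GFPT1, is listed at 0 in all 6 libraries, so these files give no level for it.

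**Figure D5:**
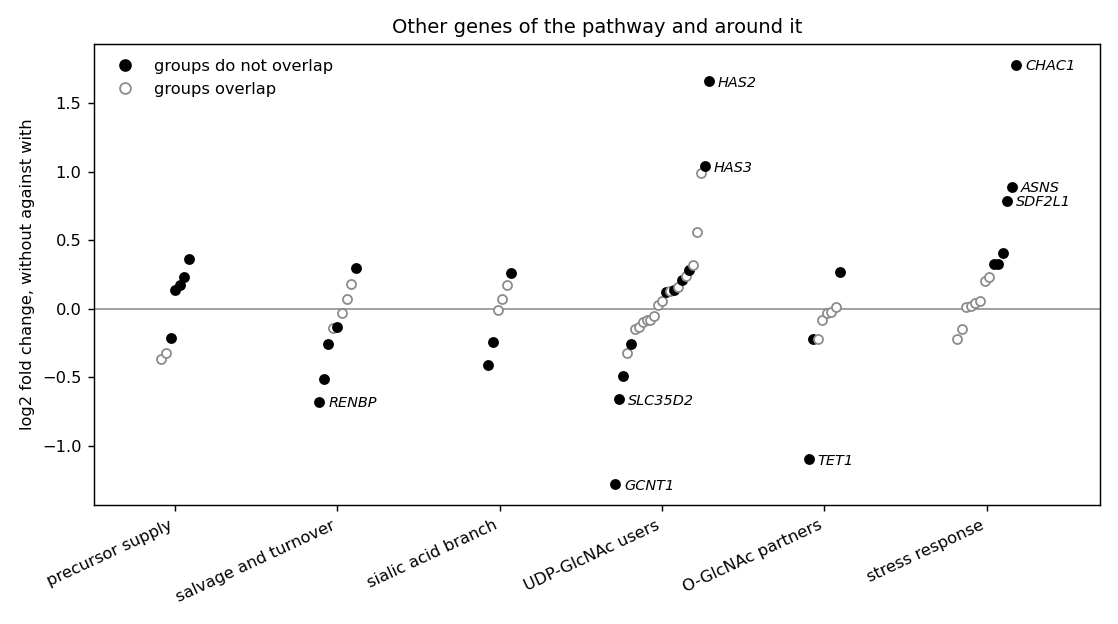
Log2 fold change (without against with glutamine, edgeR, all 6 libraries) of the genes tested in the 6 lists around the pathway; filled points are genes whose groups do not overlap, open points genes whose groups overlap, and names mark genes named in the text with an absolute log2 fold change over 0.6. HAS2 and CHAC1 are the highest, at 1.66 and 1.78, and GCNT1 and TET1 the lowest, at -1.28 and -1.10.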

How the data were processed

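The authors deposited raw counts per Ensembl gene for 6 libraries of 50-nt single-end reads, made with stranded mRNA kits per the labels. Cutadapt, Trim Galore, FastQC, STAR 2.5.2b, DESeq2 and GRCh38 are named in the submitters' processing notes. The counting program, annotation release and strand setting are not given in the sources used here. The table heads its columns as day 0 or day 9, although every sample is labelled day 9. Each sample's description states its heading, and by it the day 0 columns are with glutamine and the day 9 columns without. A second deposited table of normalized counts was not used.

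Symbols, positions and merged exon lengths came from GENCODE 29 on GRCh38 (56531 of 60107 IDs matched). All 10 members passed the count filter. The test was the quasi-likelihood F test of edgeR 4.0.16 in R 4.3.3 (legacy = FALSE, robust = FALSE, filterByExpr, TMM), with Benjamini-Hochberg adjustment over 22613 genes and a threshold of 0.05. SE is the absolute log2 fold change over the square root of F. CPM uses TMM-scaled library sizes. The fits were tested on simulated data with no outlying library, which cannot show how they behave with replicate 1 with glutamine. Alternatives used DESeq2 1.42.0, limma 3.58.1 (voom), other scalings and filters, a replicate block and each library left out.

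The members, lists and tests were chosen with earlier results of these data known. All members are named. From each other list up to 4 genes are named: the largest in absolute log2 fold change that had no overlap between groups and averaged 50 or more counts in the higher group. XBP1, ATF4, DNAJB9, ATF6, TRIB3, SEL1L, DDIT3, ATF3, EDEM1, HSP90B1, HSPA5, HK2, GPI and single marker genes were named outside this rule, after their values were seen. The GC box was also added to the motifs searched.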

Additional observations from a re-analysis of the deposited data

How the results depend on the processing

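Of 140 values of the 10 members under other settings, 134 had the same sign and the same call, 6 became called and 0 reversed. The 6 were GFPT2 under DESeq2 and 5 members without replicate 1 with glutamine. Of 308 values of the other genes named by the rule, 275 had the same sign and call and 33 became called. The count of 1 gene called among all genes was 0 under upper quartile scaling, edgeR's legacy setting, limma-voom and the replicate block, 2 with no filter and 3041 under DESeq2. It ran from 0 to 9573 with 1 library left out, highest without replicate 1 with glutamine and 17 without replicate 1 of the other group. The count of 0 members called became 1 under DESeq2 and, at an adjusted p under 0.1, a threshold chosen after seeing the data, 1 as well. With 1 library left out it ran from 0 to 5. The causes were not tested.

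Members without overlap numbered 4 under DESeq2's size factors (OGA lost), 5 under upper quartile scaling and 5 to 7 with 1 library left out. The share of all genes under these settings is not given here. Groups separate more easily with fewer libraries, so the rise to 7 is not read as a result about the members. The log2 ratio of OGT to OGA ran from 0.04 to 0.24 and that of GFPT2 to GFPT1 from -0.42 to -0.27 with 1 library left out. The labels do not say that a replicate number marks a shared culture, so the numbers were not taken as pairs. Deviations from the group means of same-numbered libraries had correlations of -0.0205, 8.77e-05 and 0.0281. Because replicate 1 with glutamine stood apart from its group and shifted its mean, these values cannot decide on pairing. With the replicate block 0 genes and 0 members were called, and the ratios differed by 0.11 and -0.34, as without it. The median log2 fold change of all genes was 0.001, and -0.043 under upper quartile scaling. Each member had at least 1992 counts in every library.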

Other observations

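The genes whose pattern over the 6 libraries was most like that of GFPT1, by Pearson's r of log2 CPM among 16880 genes with a mean of at least 50 counts, were C14orf39 (0.9994), RRN3P1 (0.9990) and ZMYM2 (0.9989). For GFPT2 they were EYA2 (0.9998), GNAL (0.9982) and PDZRN3 (0.9980), and for OGT CCDC136 (0.9952), NEO1 (0.9932) and STON1 (0.9917). With 6 libraries such values are common: r was above 0.95 for 1114 genes with GFPT1, 1032 with GFPT2 and 135 with OGT. The points share their libraries, and replicates 2 and 3 with glutamine stand apart from the other 4 in many genes. Among the members themselves r was 0.97 between GFPT1 and OGA, 0.96 between GFPT1 and GFPT2 and 0.97 between GFPT2 and OGA, against 0.61 between GFPT1 and OGT and -0.87 between GFPT2 and NAGK.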
